A study of Mus musculus with 28 samples.

Results

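Histone acetylation is written by acetyltransferases, removed by deacetylases and read by proteins with bromodomains, and 9 genes of this system were followed through mouse spermatogenesis by the H3K27ac (acetylated lysine 27 of histone H3) found at the genes themselves. The writers were Ep300, Crebbp, Kat2a and Kat2b, the erasers Hdac1, Hdac2 and Hdac3, and the readers Brd2 and Brdt. All peaks that the deposited tables assigned to 1 of these genes were taken, which gave 332 peaks of 484961 in the series, and 291 of them named no second gene. A promoter peak was one lying within 1 kb of a transcription start that the tables listed under that gene's symbol alone; 130 peaks qualified. The libraries came from C57BL/6 mice that were wild type (WT) or lacked Scml2 (KO), a gene of a germline Polycomb protein. Thy1+ and c-Kit+ spermatogonia were taken at postnatal day 7 from WT and KO testes, while adult KO testes gave the meiotic and postmeiotic cells, pachytene spermatocytes (PS) and then round spermatids (RS), each group with 2 H3K27ac libraries. The H3K27ac libraries of adult WT cells were not analysed here, so every comparison that involves PS or RS is within KO mice, and in those comparisons that cross from spermatogonia to PS the cell stage and the age of the mouse cannot be told apart. Nothing in the labels says that replicates came from separate animals, and p-values measure the spread between libraries only.

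Ep300 (p300) and Crebbp (CBP) are closely related enzymes and the main depositors of H3K27ac, while Kat2a (GCN5) and Kat2b (PCAF) form another pair of related enzymes best known for acetylating lysine 9 of H3. Hdac1 and Hdac2 are the paired catalytic subunits of the SIN3, NuRD and CoREST repressor complexes, and Hdac3 is the deacetylase of the NCoR and SMRT complexes. Brd2 and Brdt belong to the BET family, whose bromodomains bind acetylated histones; Brd2 is widely expressed, and Brdt is made in the testis, where it is needed for meiotic and postmeiotic gene expression and for chromatin compaction in spermatids.

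Among the members on the + strand, Brdt was marked in adult cells only. Ep300 and Hdac2 were among the most enriched promoters in the spermatogonial libraries, and the Kat2b starts were called in different numbers of libraries. The other members lie on the − strand and their sequences are not printed. Promoter sequences are given for the + strand members. Each is the 250 bases before the start in RefSeq's GRCm38.p6 table, 5′ to 3′ on the gene's strand (all +), with matches to the motifs searched in capitals: CCAAT (the CCAAT box), GGGCGG (the GC box), the NRF1 motif, TGACGTCA (the cAMP response element), CACGTG (an E-box) and CCGGAAGT (an ETS motif), on both strands.
Brdt, chr5:107330944-107331193: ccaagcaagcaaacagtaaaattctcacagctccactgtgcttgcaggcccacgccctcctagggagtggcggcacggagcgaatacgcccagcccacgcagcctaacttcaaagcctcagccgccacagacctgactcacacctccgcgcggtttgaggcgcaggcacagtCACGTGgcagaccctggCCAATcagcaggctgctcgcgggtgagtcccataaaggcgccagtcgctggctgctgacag
Ep300, chr15:81585964-81586213: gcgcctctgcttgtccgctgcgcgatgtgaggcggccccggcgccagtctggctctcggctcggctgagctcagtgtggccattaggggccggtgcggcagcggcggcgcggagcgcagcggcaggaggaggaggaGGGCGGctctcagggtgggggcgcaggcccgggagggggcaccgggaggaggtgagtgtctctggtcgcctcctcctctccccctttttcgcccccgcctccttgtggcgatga
Hdac2, chr10:36974294-36974543: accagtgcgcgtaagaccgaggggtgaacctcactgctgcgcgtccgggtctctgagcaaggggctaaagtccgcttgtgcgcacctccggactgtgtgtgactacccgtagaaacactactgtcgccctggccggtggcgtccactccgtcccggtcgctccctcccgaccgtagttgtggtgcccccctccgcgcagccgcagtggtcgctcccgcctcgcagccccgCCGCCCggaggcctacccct
Kat2b, first start, chr17:53566721-53566970: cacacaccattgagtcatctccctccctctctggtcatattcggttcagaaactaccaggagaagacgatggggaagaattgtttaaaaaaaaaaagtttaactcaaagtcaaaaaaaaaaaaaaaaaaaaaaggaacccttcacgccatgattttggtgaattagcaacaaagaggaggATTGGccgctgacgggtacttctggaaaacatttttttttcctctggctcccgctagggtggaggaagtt
Kat2b, second start, chr17:53583876-53584125: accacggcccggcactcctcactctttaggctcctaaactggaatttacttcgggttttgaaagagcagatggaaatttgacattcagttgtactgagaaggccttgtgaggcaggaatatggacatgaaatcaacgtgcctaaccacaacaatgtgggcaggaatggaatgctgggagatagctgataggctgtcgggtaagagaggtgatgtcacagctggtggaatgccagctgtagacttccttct
The Brdt window held an E-box beginning 78 bases and a CCAAT box beginning 61 bases before the start. The Ep300 and Hdac2 windows each held 1 GC box, the Hdac2 match being on the opposite strand, the first Kat2b window held a CCAAT box on the opposite strand, and none of the 6 motifs was found in the second Kat2b window. Over windows of 300 bases (250 before and 50 after the start), 37.4% of all 32851 promoters of the table held CCAAT, 35.7% GGGCGG, 7.15% CACGTG, 3.89% CCGGAAGT, 1.79% TGACGTCA and 0.971% the NRF1 motif. The table had 10 such windows for 7 of the members. Crebbp had the most CpG dinucleotides among them, 49 with 82% G+C, followed by Hdac2 with 36, the most upstream Brd2 start with 32 and Ep300 with 30; Brdt had 23, the first Kat2b start 11 and the second 6, against a median of 7 and 52.7% G+C over all promoters. The window of that Brd2 start also held an NRF1 match.

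The H3K27ac libraries held 17877 to 73316 peaks, and the 16 libraries of input chromatin 359 to 1192. None of the 13503 input peaks named a member. Read depth is unknown; the background height from which the authors' fold enrichment is computed, which would rise with depth, lay between 0.564 and 1.62 in the H3K27ac libraries and was higher in replicate 1 than in replicate 2 of each of their 6 groups. The Scml2 promoter was called in 4 libraries, all KO. Every adult H3K27ac library was KO, so this count alone does not separate genotype from stage. A peak at the start does not check the knockout. Marker promoters only partly followed the labelled stages. All 6 spermatid markers were called in each PS and RS library and 1, Spaca1, in 1 spermatogonial library. All 6 spermatocyte markers were called in each adult library and 1 to 4 of them in the spermatogonial ones. Of 5 general germ cell markers, all 5 were called in each adult library and 2 to 4 in the spermatogonial ones. Of 7 markers of undifferentiated spermatogonia, 1 to 6 were called in the spermatogonial and 3 to 6 in the adult libraries, and of 5 markers of differentiating spermatogonia 0 to 3 and 2 to 5; Id4 was highest in PS (13.7 and 19.7) and Dmrtb1 was called in adult libraries only. Promoters of all 8 Sertoli cell markers were called in both PS libraries, 4 and 3 of them in RS replicates 1 and 2, and 1 to 5 in the spermatogonial libraries. Of 6 Leydig cell markers, 4 were called in each PS library, 1 in each RS library and 0 to 4 in the spermatogonial ones (4 in c-Kit+ KO replicate 1). Star was called in 9 H3K27ac libraries, Lhcgr in 8, Cyp11a1 in 5, Insl3 in 3, and Cyp17a1 and Hsd3b1 in none. Of 7 peritubular, endothelial and blood markers, 1 to 6 were called in spermatogonia (6 in Thy1+ KO replicate 1), 4 and 5 in PS and 5 in each RS library. The part of somatic cells in the values below was not tested, and more cells carrying a mark cannot be told apart from more mark per cell.

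All members but Brdt had a promoter peak in all 12 H3K27ac libraries, 8 of 9. Such constant marking was found at 48.8% of the 17923 genes with a start listed alone. Brdt was the 1 member with a promoter peak in all 4 adult libraries and in no spermatogonial one, a pattern shared by 5.82% of genes. With peaks limited to a −log10 q of at least 5, Ep300, Crebbp, Kat2b, Hdac2, Hdac3 and Brd2 were still called in all 12 libraries, Kat2a in 11, Hdac1 in 10 and Brdt in its 4. The height of the marks differed widely among the genes. Each promoter is described by its fold enrichment (the height of the signal at the highest summit over the library's background, each plus 1) and by its percentile. The percentile is the gene's rank by fold enrichment among the genes with a promoter peak in the same library, in percent of those genes. Genes with tied values share their mean rank. By median percentile the order was Brd2 (99.3), Ep300 (98.99), Hdac2 (96.1), Crebbp (82.9), Kat2b (62.4), Brdt (52.5, over its 4 libraries), Hdac3 (46.8), Kat2a (45.8) and Hdac1 (37.0). The ranges of neighbours in this order overlapped at every step. Within libraries, Hdac2 was above Crebbp and Crebbp above Kat2b in 12 of 12 each, while Brd2 was above Ep300 in 7, Ep300 above Hdac2 in 8, Kat2a above Hdac1 in 7 with 3 ties, and Hdac3 above Kat2a in 4. Brd2, Ep300, Hdac2 and Crebbp, whose lowest percentile was 69.3, were separated from Hdac1, whose highest was 57.0.

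**Figure D1:**
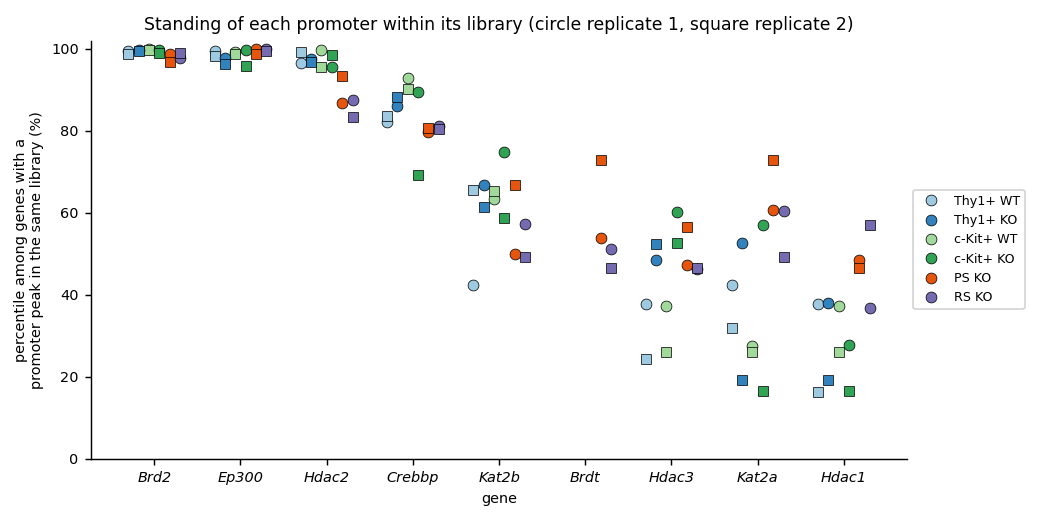
Percentile (%) of each member's promoter fold enrichment among all genes with a promoter peak in the same library, with genes on the x axis in order of their medians, colours for the groups, circles for replicate 1 and squares for replicate 2. Brd2 and Ep300 stay above the 95th percentile in every library, Hdac1 stays below the 58th, and Brdt has points for the 4 adult libraries only.

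The Ep300 promoter was among the most enriched of every library. Around its start at chr15:81586214 the fold enrichment was 27.8 and 21.1 in Thy1+ WT replicates 1 and 2, 35.4 and 21.7 in Thy1+ KO, 26.2 and 20.5 in c-Kit+ WT, 31.2 and 16.3 in c-Kit+ KO, 44.2 and 43.2 in PS and 41.9 and 36.8 in RS. The 4 adult values lay above all 8 spermatogonial ones, from which they were separated by a narrow gap. Ep300 was the 1 of the 8 constantly marked members with this order, which held for 22.4% of the 8752 genes called in all 12 libraries. The percentiles, which rank a gene within its library, overlapped: 95.9 to 99.9 in spermatogonia and 98.8 to 99.9 in adult cells. In all 12 libraries the highest summit lay before the start, 330 to 634 bases upstream. The peak holding it was 1539 to 2387 bases long in spermatogonia and 2720 to 3728 in adult cells, without overlap. Longer peaks in every adult library were common, at 60% of the 8752 genes and 5 of the 8 members (Ep300, Crebbp, Kat2a, Hdac1 and Brd2), and the percentile of the Ep300 peak's length was 86.8 to 96.4 in spermatogonia and 84.8 to 92.2 in adult cells.

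Crebbp, the paralog of Ep300, was marked more weakly in each library. The fold enrichment at chr16:4213404 was 15.7 and 13.3 in Thy1+ WT, 25.8 and 17.3 in Thy1+ KO, 18.8 and 14.3 in c-Kit+ WT, 17.5 and 9.91 in c-Kit+ KO, 25.2 and 27.7 in PS and 23.1 and 20.0 in RS. Thy1+ KO replicate 1 reached the adult range, so the groups overlapped, and c-Kit+ KO replicate 2 was the lowest. Its percentile stood between 79.8 and 81.2 in all 4 adult libraries and spread from 69.3 to 92.8 over the spermatogonial ones.

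Kat2a had one of the lowest promoter signals in spermatogonia, and its highest adult signal lay upstream of the gene. The fold enrichment of the promoter peak at chr11:100712467 was 8.91 and 6.64 in Thy1+ WT, 15.7 and 6.40 in Thy1+ KO, 6.84 and 6.20 in c-Kit+ WT, 10.9 and 5.25 in c-Kit+ KO, 19.4 and 25.1 in PS and 17.2 and 12.4 in RS. The adult libraries were high and only Thy1+ KO replicate 1 reached into their range. In the spermatogonial libraries the highest summit lay within 208 bases of the Kat2a start, in peaks of 357 to 866 bases. In the adult libraries it lay 1518 to 1719 bases upstream, in peaks of 2746 to 3887 bases that reach over the start of Hspb9, a gene of a small heat shock protein on the opposite strand whose start is 1383 bases away. With summits limited to 1 kb of the Kat2a start, a setting chosen after seeing the data, the adult fold enrichments were 13.0 and 12.3 in PS and 10.6 and 8.66 in RS. The adult percentiles then dropped from between 49.2 and 72.8 to between 30.96 and 38.5, inside the spermatogonial range of 16.6 to 57.4.

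**Figure D2:**
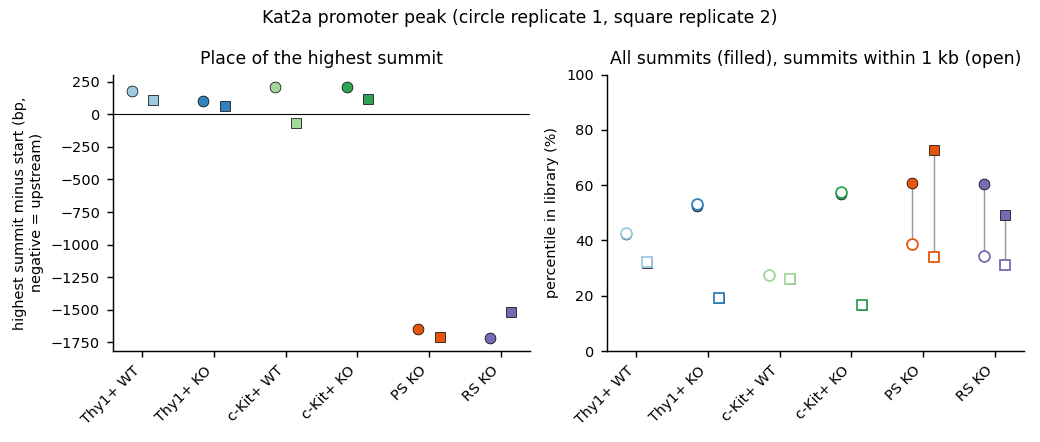
Left, distance in bases from the Kat2a start to the highest summit of its promoter peak (negative values lie upstream) by group; right, percentile (%) of the promoter with all summits (filled) and with summits within 1 kb of the start (open). Circles are replicate 1 and squares replicate 2. The adult summits lie 1518 to 1719 bases upstream, and the adult percentiles drop to 30.96 to 38.5 once those summits are left out.

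Kat2b, the paralog of Kat2a, was the more strongly marked of the pair in median percentile. Its first start, chr17:53566971, had a fold enrichment of 8.91 and 10.3 in Thy1+ WT, 19.2 and 11.5 in Thy1+ KO, 11.4 and 9.92 in c-Kit+ WT, 13.7 and 8.75 in c-Kit+ KO, 16.4 and 22.9 in PS and 16.4 and 12.4 in RS. Adult and spermatogonial values overlapped, with PS replicate 2 highest. A second listed start, chr17:53584126, was called in 5 libraries: at 6.10 and 4.27 in PS, at 7.43 and 8.11 in RS and at 3.62 in Thy1+ WT replicate 2. Both RS values were above both PS values there, an order whose share among all promoters was not counted.

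Among the erasers, Hdac2 stood far above Hdac1 and Hdac3. At chr10:36974544 its fold enrichment was 22.0 and 23.5 in Thy1+ WT, 34.9 and 22.4 in Thy1+ KO, 29.6 and 16.7 in c-Kit+ WT, 20.8 and 19.2 in c-Kit+ KO, 27.8 and 34.7 in PS and 25.4 and 21.1 in RS. These values overlapped fully between the stages. Its percentile did not: it was 95.6 to 99.7 in the 8 spermatogonial libraries and 86.8, 93.5, 87.6 and 83.4 in PS replicates 1 and 2 and RS replicates 1 and 2. Of the 8 members called in all 12 libraries, Hdac2 alone had a percentile lower in every adult than in every spermatogonial library, 1 of 8 against 5.58% of the 8752 genes called in all 12. None of the 8 was higher in every adult library, against 13.4% of those genes. The number of genes ranked differs between libraries (9941 to 13666). Ranked only among the 8752 genes called in all 12, a setting chosen after seeing the data, Hdac2 stood at 94.4 to 99.6 in spermatogonia and 76.6 to 90.5 in adult cells, and Brd2 then had the same order (98.7 to 99.9 and 95.5 to 98.4), 2 of 8 members against 9.97% of genes.

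Hdac1 had the lowest median standing of the members. At chr4:129542646 the fold enrichment was 8.38 and 5.43 in Thy1+ WT, 12.2 and 6.40 in Thy1+ KO, 7.98 and 6.20 in c-Kit+ WT, 7.09 and 5.25 in c-Kit+ KO, 16.02 and 16.5 in PS and 11.3 and 14.1 in RS. The adult values were above all spermatogonial ones except Thy1+ KO replicate 1, which passed RS replicate 1. The peak with the highest summit was 248 to 1512 bases long in spermatogonia and 1855 to 2279 in adult cells.

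Hdac3 lies at chr18:37954988, and many of its peaks were assigned jointly to another gene. Its fold enrichment was 8.38 and 6.03 in Thy1+ WT, 14.7 and 10.2 in Thy1+ KO, 7.98 and 6.20 in c-Kit+ WT, 11.3 and 8.16 in c-Kit+ KO, 15.6 and 19.7 in PS and 13.7 and 11.9 in RS. KO values were above WT values of the same stage in every library of these spermatogonia, an order whose share among all genes was not counted. The median region was also higher in KO on this uncentred scale, by a log2 change of 0.54 in Thy1+ and 0.07 in c-Kit+ cells. In percentiles, the 4 WT libraries lay between 24.3 and 37.7 and the 4 KO libraries between 48.6 and 60.2, which did not overlap. Hdac3 was the 1 of 8 members with this order, against 1.89% of the 8752 genes called in all 12 libraries. The test of this difference follows with the other genotype comparisons.

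The reader Brd2 carried the broadest mark. A single domain covered all 3 of its listed starts, from chr17:34119900 to chr17:34122607, in all 12 libraries, and it also reached over the start of H2-DMa, a gene of class II antigen presentation 225 bases away on the other strand. The fold enrichment was 28.3 and 22.3 in Thy1+ WT, 42.5 and 28.8 in Thy1+ KO, 32.5 and 23.6 in c-Kit+ WT, 30.7 and 20.4 in c-Kit+ KO, 37.0 and 38.4 in PS and 33.2 and 33.5 in RS. Thy1+ KO replicate 1 was the highest and the stages overlapped. The domain was 3448 to 6044 bases long in spermatogonia and 7564 to 8179 in adult cells, an order found at 60% of genes. Among the promoter peaks of its library its length stood at a percentile of 99.9 or more in spermatogonia and of 99.6 to 99.8 in adult cells.

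Brdt, the BET gene of the male germline, had no promoter peak in the 8 spermatogonial libraries. At chr5:107331194 its fold enrichment was 17.5 and 25.1 in PS and 14.9 and 11.9 in RS. Both PS values were above both RS values, an order whose share among all genes was not counted. The peaks were 1701 to 3228 bases long, with the summit 187 to 533 bases inside the gene. Its adult percentiles were 53.8 and 72.8 in PS and 51.2 and 46.5 in RS, near the middle of the promoters marked in those libraries.

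**Figure D3:**
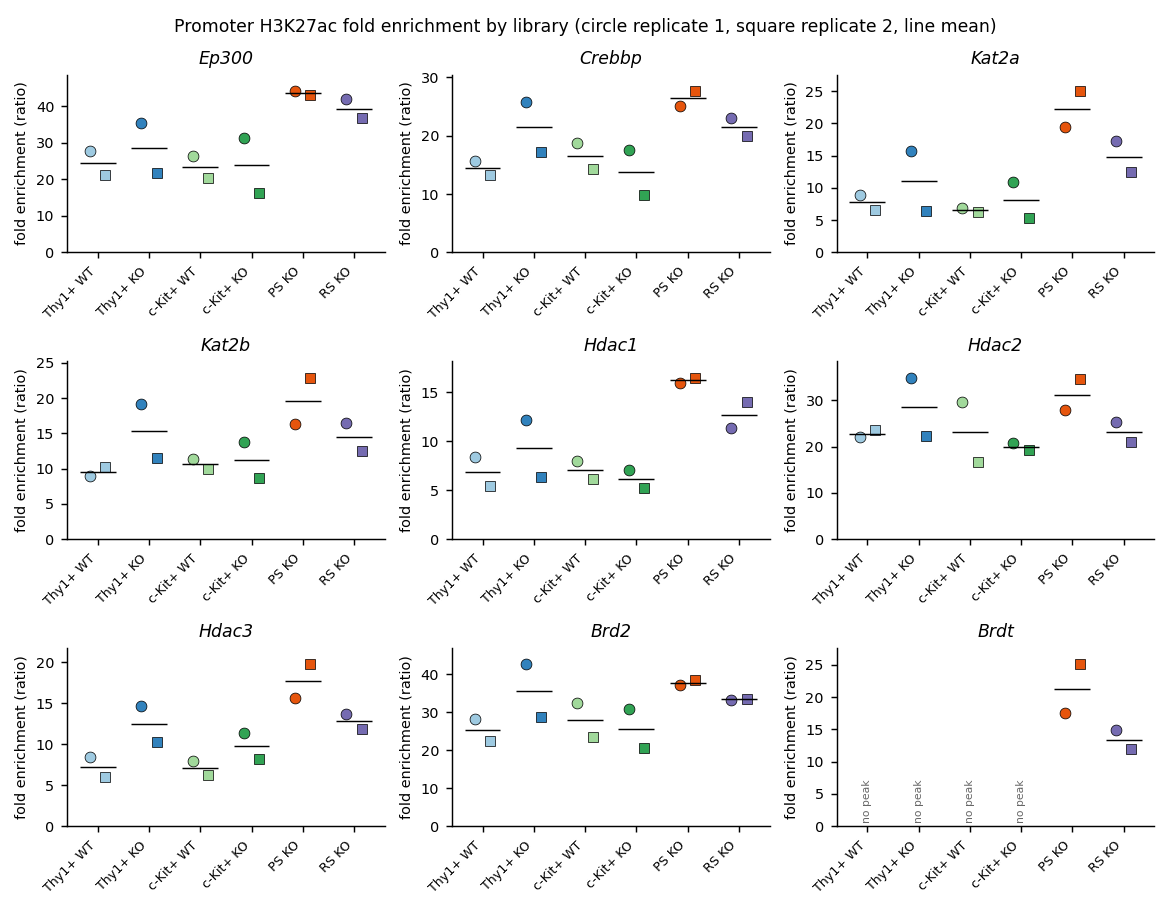
Promoter fold enrichment (a ratio, linear axis from 0) of the 9 members by group, with circles for replicate 1, squares for replicate 2 and a line for the mean of the 2 libraries. Ep300 adult values (36.8 to 44.2) lie above all spermatogonial values (16.3 to 35.4), and Brdt has no peak in the 8 spermatogonial libraries.

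The effect of Scml2 loss on the members was tested in the spermatogonia. Log2 fold enrichments of regions called in every library compared, centred on each library's median, were fitted with limma, and a region was called at a Benjamini-Hochberg adjusted p under 0.05 over all regions. No member's promoter region was called in Thy1+ cells, where 0.00923% of 10835 regions were (1 region), in c-Kit+ cells (0% of 11313), in both populations with stage as a covariate (0% of 9585), or in the interaction of genotype and stage (0% of 9585). At an unadjusted p under 0.05, 559, 543, 502 and 453 regions passed in these 4 fits, of which 1 belonged to a member. That was Hdac3 in the joint fit, higher in KO by 0.35 on the log2 scale (SE 0.15, 95% interval 0.05 to 0.64), with an adjusted p of 0.888 in limma. The other 7 members tested had changes between −0.20 (Hdac2) and 0.07 (Kat2b) there, with standard errors of 0.15 to 0.17. Before centring, KO libraries were higher at the median region by 0.54 in Thy1+ cells, by 0.07 in c-Kit+ cells and by 0.27 in the joint fit, and all 8 members were above 0 in the joint fit on that scale. In Thy1+ cells the shift came largely from KO replicate 1. The log2 medians there were 4.02 and 3.26 in KO and 3.24 and 2.97 in WT replicates 1 and 2.

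Between c-Kit+ and Thy1+ spermatogonia no member's promoter was called either. In WT, 0.216% of 10177 regions were called, 17 with a higher and 5 with a lower value in c-Kit+ than in Thy1+ cells, and the members' changes ran from −0.19 to 0.23. In KO, 0% of 11134 regions were called, with 1255 at an unadjusted p under 0.05 and none of these a member's promoter, and the members' changes ran from −0.18 to 0.20. The median region was lower in c-Kit+ than in Thy1+ cells by 0.50 in KO (a shift of −0.50) and by 0.05 in WT (−0.05) before centring, and on that scale 0 of 8 members were above 0 in KO and 4 of 8 in WT, against 6 of 8 in each after centring. In KO the log2 medians were 3.97 and 3.26 in Thy1+ and 3.31 and 2.92 in c-Kit+ replicates 1 and 2. The smallest adjusted p of a member was 0.850 in WT and 0.806 in KO (limma).

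Between c-Kit+ spermatogonia and PS of KO mice the H3K27ac of many promoters differed, and none of the members was among those called. Of 12501 regions, 31.9% were called (854 higher and 3138 lower in PS), and of the 9191 regions at listed starts, 23.5%. None of the 8 members tested was called, and Brdt was not tested because it had no peak in c-Kit+ cells. Brd2 was nearest to the threshold, lower in PS by 0.49 (log2 change −0.49, SE 0.19, 95% interval −0.90 to −0.07, limma adjusted p = 0.0708), followed by Hdac2 (−0.44, SE 0.20, interval −0.87 to −0.01, adjusted p = 0.111). Kat2a had the highest value, 0.47 (SE 0.24, interval −0.05 to 0.99, adjusted p = 0.154); it was called without c-Kit+ KO replicate 1 (0.86, adjusted p = 0.00305), stood at −0.24 without PS replicate 2 and at −0.37 with summits within 1 kb of the start. Hdac1 had 0.34 (SE 0.19), and Ep300, Crebbp, Kat2b and Hdac3 lay between −0.25 and −0.07. Brd2 and Hdac2 were the 2 members with an unadjusted p under 0.05, as were 5277 regions. The intervals of the 8 members reach from −0.90 to 0.99, so that alike levels in the 2 stages are not shown. Before centring, the median region was 1.08 higher in PS and all 8 members were above 0; values below 0 mean a smaller rise than that of the median region. Beside these values, the summed promoter fold enrichment of the 8 Sertoli cell markers was 70.5 to 92.2 in PS, 13.5 to 21.1 in RS and 9.59 to 35.9 in spermatogonia, and that of the 6 Leydig cell markers 26.3 to 29.9, 4.30 to 5.41 and 0 to 24.6. These sums are of uncentred values and count a promoter without a peak as 0, so they also follow the number of peaks called and the scale of each library. Relative to the median region, Amh was called higher (adjusted p = 0.0332) and Gata4 and Lhcgr lower (0.00184 and 0.000188, limma) in PS than in c-Kit+ cells. The 2 tested spermatocyte markers, Mybl1 and Sycp1, were called higher in PS (1.25 and 1.19, limma adjusted p of 0.000734 and 0.000628).

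From PS to RS, again no main promoter region of the 9 members was called, nor had any an unadjusted p under 0.05, against 20.2% of 21329 regions (2648 higher and 1661 lower in RS) and 10.1% of the 11462 at listed starts. Brdt had the largest change of the 9 main promoter regions, −0.46 (SE 0.21, 95% interval −0.95 to 0.02, limma adjusted p = 0.162). Kat2a followed with −0.40 (SE 0.20, adjusted p = 0.204), read from summits upstream of its start. With summits within 1 kb of that start Kat2a stood at −0.04 (limma adjusted p = 0.922). The other 7 main promoter regions lay between −0.27 (Hdac3) and 0.04 (Ep300). The second start of Kat2b went the other way, higher in RS by 0.80 (SE 0.25, interval 0.24 to 1.36), just short of the threshold with an adjusted p of 0.0507 in limma. At the median region RS was 0.19 lower than PS before centring. Beside these values, 3 of 3 tested Sertoli cell markers (Wt1, Gata4 and Amh, limma adjusted p of 0.00935, 0.0101 and 0.0429) were called lower in RS than in PS, as was 1 of 1 tested Leydig cell marker (Star, 0.0343). So were 2 of 3 tested markers of undifferentiated spermatogonia (Id4 and Etv5, limma adjusted p of 0.0238 and 0.0170) and 1 of 2 of differentiating spermatogonia (Kit, 0.0492). No general germ cell, spermatocyte, or peritubular, endothelial and blood marker was called. Of 6 tested spermatid markers, 2 were called higher in RS, Tnp1 and Acrv1 (limma adjusted p of 0.0183 and 0.0261).

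**Figure D4:**
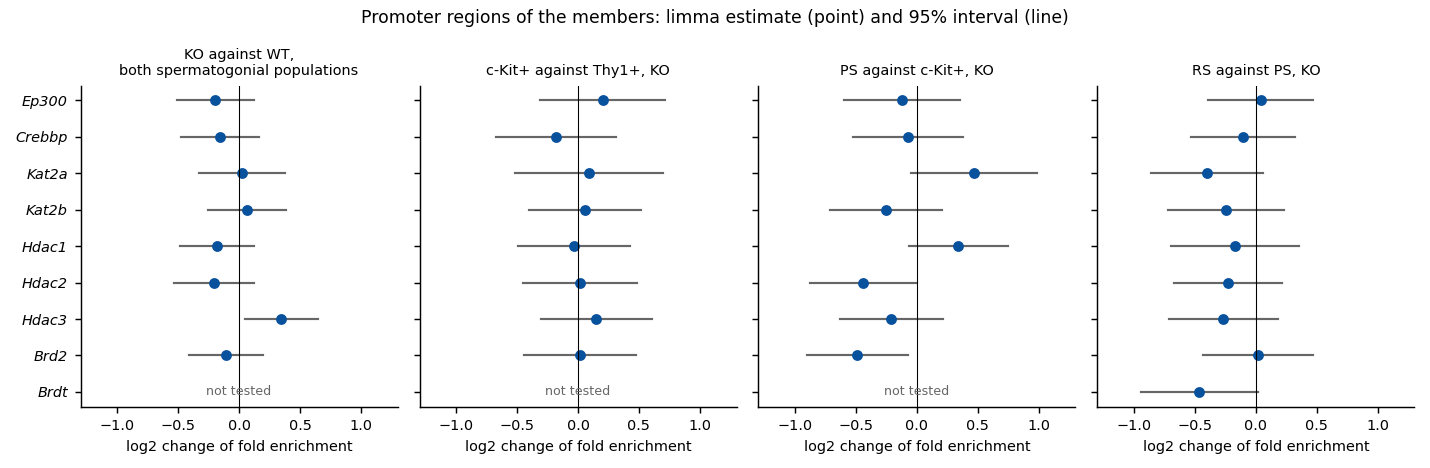
Change in log2 fold enrichment of each member's promoter region after centring on the library median, in 4 comparisons; points are limma estimates and lines 95% intervals. None passed an adjusted p of 0.05, and the points lie between −0.49 and 0.47.

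Other genes of the same machinery, from fixed lists, were marked about as constantly as the members. Promoter peaks in all 12 libraries were found for 13 of 14 other acetyltransferases, 8 of 12 other deacetylases, 24 of 24 other bromodomain genes, 14 of 14 subunits of acetyltransferase complexes and 24 of 26 subunits of deacetylase complexes. Hdac4, a class IIa deacetylase, had a promoter peak in none. In the genotype comparisons and between Thy1+ and c-Kit+ cells no promoter of these lists was called. From c-Kit+ cells to PS, 1 of 14 other acetyltransferases rose relative to the median region (Gtf3c4, 0.76), as did 1 of 8 other deacetylases (the mitochondrial Sirt3, 0.55). Among the 24 bromodomain genes 4 rose, including Brd8 (0.74), Baz2a (0.71) and Cecr2 (0.68), and 2 were lower relative to the median region, Baz2b (−0.60) and Zmynd11 (−0.57). Of 14 acetyltransferase complex subunits 1 was lower on that scale, Atxn7 of the SAGA complex (−0.58). Of 25 deacetylase complex subunits 5 rose, including Rcor3 (0.76), Ing2 (0.74) and Sap30 (0.69), and 2 were lower, the NuRD subunits Mta1 (−0.64) and Mta3 (−0.55). The called regions of Gtf3c4, Sirt3, Brd8 and Rcor3 also lay at starts of Ddx31, Psmd13, Kif20a and Gm10516, in that order. These rises therefore cannot be credited to the listed genes alone. The deposited fold enrichments of the 5 lower genes were higher in PS on average (Baz2b 21.2 in c-Kit+ cells and 29.5 in PS, Mta1 17.5 and 22.9), by less than at the median region. Adjusted p of the genes named ran from 0.0106 to 0.0434 (limma), and over the 5 lists 16 of 85 promoters were called, 18.8% against the 23.5% of regions at listed starts. The list medians lay between −0.12 and 0.22, and that of all regions at listed starts was −0.06. From PS to RS, 3 of 87 promoters were called, 3.45% against 10.1%: Hdac11 rose by 0.71 (adjusted p = 0.0346), and Sirt7 (−0.66, adjusted p = 0.0381) and Zmynd11 (−0.62, adjusted p = 0.0467) fell; list medians lay between −0.20 and −0.11, against −0.14 for all regions at listed starts.

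Away from their promoters the members had 202 peaks, which merged into 78 sites. Of these, 55 were called in adult libraries only, 16 in spermatogonial libraries only and 7 in both, and 45 in a single library. The shares of all regions away from starts with these patterns were not counted, so the numbers describe these sites only. The adult libraries, which also held more peaks in all, had 27 to 37 such peaks each and the spermatogonial ones 2 to 21. With the 17877 strongest peaks kept in every library, 17 peaks were left of 121 over the 4 adult libraries and 51 of 81 over the 8 spermatogonial ones, so the direction of the difference turned. With a −log10 q of at least 5, 37 and 30 were left. Hdac1 had none at all. Of the 16 sites called in spermatogonia only, 4 lie inside the same gene's promoter peak in all 4 adult libraries: both such Brd2 sites, 1 at Ep300 (chr15:81584646-81585032) and 1 at Kat2b (chr17:53568196-53568429).

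Only 6 sites were called in 6 or more libraries, at Ep300, Kat2b and Brdt. The single one called in all 12 was assigned to Ep300, chr15:81521997-81524651, an intergenic region 62.9 kb upstream of the start that overlaps no gene of the RefSeq table. Its fold enrichment was 7.86 and 7.24 in Thy1+ WT, 12.2 and 8.95 in Thy1+ KO, 14.8 and 8.68 in c-Kit+ WT, 11.3 and 10.5 in c-Kit+ KO, 22.1 and 29.9 in PS and 16.8 and 19.5 in RS. The adult values were above all spermatogonial ones, an order shown by 14.2% of the 1159 regions away from listed starts that were called in all 12 libraries. After centring, the region was not called in PS against c-Kit+ (0.16, SE 0.21, limma adjusted p = 0.599). It was higher in c-Kit+ than Thy1+ cells by 0.64 in WT (SE 0.24, adjusted p = 0.298) and by 0.57 in KO (SE 0.22, adjusted p = 0.364), short of the threshold in both; before centring the changes were 0.59 and 0.065, and the deposited KO values overlap. The assignment to Ep300 is the authors' nearest transcript and no contact was measured.

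A further site assigned to Ep300, chr15:81511019-81512480, lies over the pseudogene Gm5218 and was called in 4 spermatogonial and 4 adult libraries, at 4.08 to 8.10. Relative to the median region it fell by 0.59 from c-Kit+ KO cells to PS (SE 0.19, limma adjusted p = 0.0341), with 5.67 and 4.08 in c-Kit+ KO and 6.48 and 5.86 in PS before centring. The call was lost at a like size with the replicate number as a block (−0.59, adjusted p = 0.0501), with an overlap of 50% of the shorter peak (−0.55, 0.0552) and without PS replicate 1 (−0.64, 0.103). It was lost at a smaller size without c-Kit+ KO replicate 2 (−0.46, 0.184) or PS replicate 2 (−0.45, 0.308) and with uncalled libraries at their lowest value (−0.28, 0.279), and the value stood at 0.18 with quantile normalization.

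Brdt had a site inside the gene that was called in 11 of 12 libraries, although its promoter was unmarked in spermatogonia. The site, chr5:107358754-107360473, covers exon and intron sequence 28.4 kb from the start, beyond the end of the shorter of the 2 listed transcripts (chr5:107350741) and within the longer one. It was called in 7 of 8 spermatogonial and all 4 adult libraries. The fold enrichment was 6.29 in Thy1+ WT replicate 1 with no peak in replicate 2, 8.10 and 5.12 in Thy1+ KO, 6.84 and 4.96 in c-Kit+ WT, 9.46 and 6.41 in c-Kit+ KO, 15.3 and 10.7 in PS and 11.7 and 9.20 in RS. RS replicate 2 and c-Kit+ KO replicate 1 overlapped and the other adult values were higher. Relative to the median region it changed by −0.37 from c-Kit+ KO cells to PS (SE 0.22, limma adjusted p = 0.233) and was 0.77 higher in c-Kit+ than in Thy1+ KO cells (SE 0.21, adjusted p = 0.224).

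Kat2b had 3 intronic sites called in 6 or more libraries. The one at chr17:53595756-53597585, 12.5 kb inside the gene from the second start, was called in 7 spermatogonial and both PS libraries and in neither RS library. Its fold enrichment was 4.83 in Thy1+ WT replicate 2, 6.08 and 6.40 in Thy1+ KO, 7.41 and 8.68 in c-Kit+ WT, 8.99 and 8.16 in c-Kit+ KO and 8.77 and 10.7 in PS. All c-Kit+ values were above the Thy1+ values, with no peak in Thy1+ WT replicate 1. The share of all regions with this order was not counted. The difference in KO, 0.96 (SE 0.27), had an adjusted p of 0.245 in limma. From c-Kit+ KO cells to PS the site fell by 0.90 relative to the median region (SE 0.20, 95% interval −1.33 to −0.48, limma adjusted p = 0.00424). In that fit 25.1% of all 12501 regions were called lower. Over all comparisons, 2 of 22 tests of the members' regions away from starts passed the threshold. The deposited values of this site overlap between the 2 groups, and on the uncentred scale the change was 0.18. Quantile normalization gave −0.74 with an adjusted p of 0.0667, uncalled libraries at their lowest value gave −0.59 with 0.0905, and leaving out c-Kit+ KO replicate 2 or PS replicate 1 gave adjusted p of 0.105 and 0.0535. The site at chr17:53586266-53588432 was called in 10 libraries at 4.66 to 11.2, with neither Thy1+ WT library among them. The site at chr17:53569576-53570867 was called in 6 at 3.78 to 6.86, and in PS replicate 2 the promoter peak itself extends over it.

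**Figure D5:**
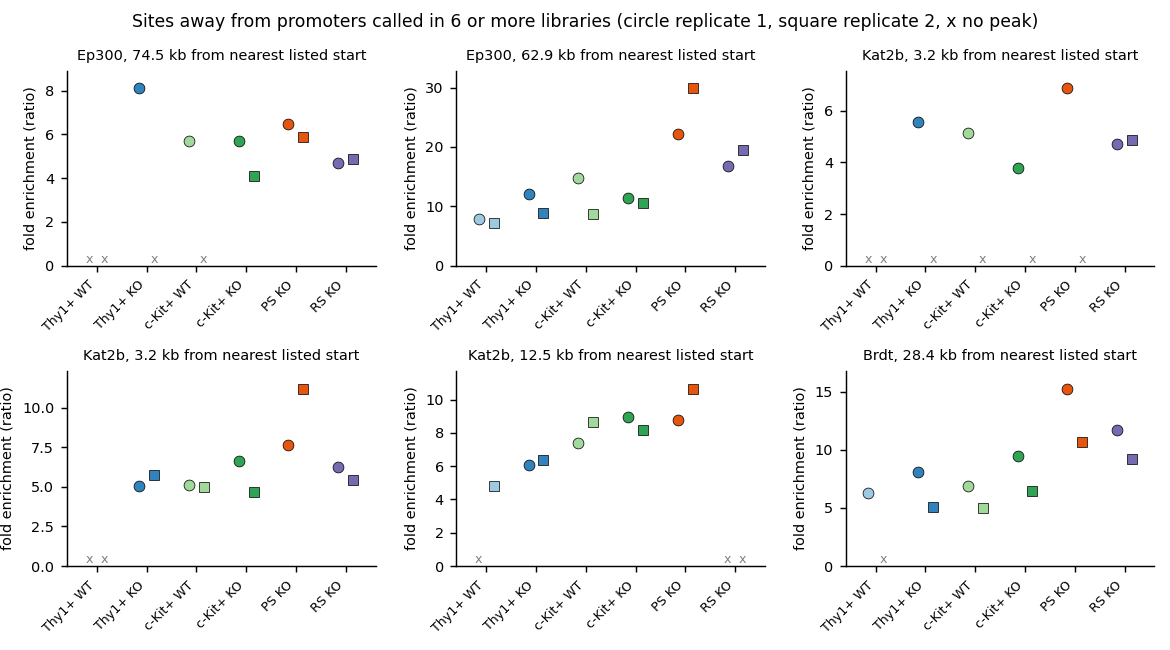
Fold enrichment (a ratio, linear axis from 0) by group at the 6 sites away from promoters that were called in 6 or more libraries, with circles for replicate 1, squares for replicate 2 and x for libraries without a peak. The Ep300 site 62.9 kb upstream has values in all 12 libraries (7.24 to 29.9), and the Kat2b site 12.5 kb from a start has none in RS.

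Crebbp had 21 sites, 17 of them in 1 library each. Its highest were intronic, at chr16:4112150-4112976 and chr16:4113048-4113409, each called in 3 adult and no spermatogonial library, at up to 7.03 and 8.21. Brd2 had 11 sites called in adult libraries only, at up to 5.95. Hdac2 and Hdac3 had 3 sites each and Kat2a 2, all in adult libraries and at 3.13 to 5.72 over the 3 genes.

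For each member called in all 12 libraries, the 3 genes with the most alike percentiles across the libraries were found by the mean absolute difference over the 12 libraries among 8751 other genes. The nearest of Brd2 was H2-DMa with a difference of 0, since both are read from the same peak, followed by Cul1 and Arf1 (0.320 and 0.443 percentile points). Those of Ep300 were Hbp1, Ywhaz and Kmt2e (0.710 to 0.741), and those of Hdac2 were Rps14, Stam and Flcn (2.01 to 2.12). Crebbp was nearest to Ndufb2, Gnl3 and Pbrm1 (3.30 to 3.67). The members in the middle of the range had less close neighbours: Cdk5rap3, Adcy9 and Poli for Kat2a (4.45 to 5.83), Abcc1, Zfp180 and Pop4 for Kat2b (4.92 to 5.77), Heatr1, Tulp3 and Mpdu1 for Hdac1 (4.16 to 4.88) and A130010J15Rik, Irf7 and Dusp22 for Hdac3 (4.87 to 5.43). No member was among the 3 nearest genes of another.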

How the data were processed

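H3K27ac and input libraries of mouse spermatogenic cells were used as the authors' peak tables, 1 per library. Per the submitters' processing notes Bowtie, MACS2 and mm10 were used; versions are not given in the sources used here. Per the file headers each line holds a summit's signal height (pileup, a coverage), a fold enrichment (a ratio), −log10 p and −log10 q. The deposited fold enrichment equalled (height + 1) / (background + 1) with a constant background per library, so it carries no local or input control. Groups came from the sample titles. A peak's value was that of its highest summit, without mitochondrial peaks. Peaks sharing at least 1 bp between compared libraries were joined; regions called in every one were tested with limma 3.58.1 (R 4.3.3) on median-centred log2 fold enrichment, only the compared groups entering each fit, with Benjamini-Hochberg adjustment over all regions. Where several regions touched a member's starts, the one with the highest mean was used. The test was checked on simulated data. Python 3.11.15, numpy 2.4.6 and pandas 2.3.3 were used otherwise. Members, gene lists and tests were chosen with earlier results of these data known. All 9 members are described; likeness, list and marker genes were named by rule (the 3 nearest genes, and up to 3 called genes per list and direction). The labels do not say whether replicate numbers mark a shared batch, so the main fits left them out. Depth is unknown, so no counting interval is given. Alternatives were quantile normalization, stricter peaks, a larger overlap, removal of input regions, uncalled libraries at their lowest value, the replicate block, leaving out each library and, added later, summits within 1 kb of the start and ranks among genes called in every library. RefSeq's GRCm38.p6 tables gave sequences and gene names.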

Additional observations from a re-analysis of the deposited data

How the results depend on the processing

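In the 4 genotype fits, both comparisons of c-Kit+ with Thy1+ cells and RS against PS, no alternative called a member's main promoter region. The second Kat2b start (limma adjusted p = 0.0507 in the main fit of RS against PS) was not read under the alternatives. In PS against c-Kit+ cells, 1 member was called with uncalled libraries at their lowest value, Brdt (1.86, adjusted p = 0.0402, limma), and leaving out 1 library at a time gave 0 to 1 calls (Kat2a). The number of member promoter calls, 100 of the possible pairs of gene and library, stayed within 1.5 times under every window, q and start setting; the 202 peaks away from promoters became 67 with stricter peaks and 68 with equal peak numbers. Members with a lower percentile in every adult library numbered 1, and 2 when ranked among genes called in all 12. Signs of small changes turned in these cases. With quantile normalization Brd2 had 0.010 in KO against WT, Ep300 0.18 and the Ep300 pseudogene site 0.18 in PS against c-Kit+, and Crebbp 0.028 in RS against PS. With uncalled libraries at their lowest value Ep300 had 0.19, Crebbp 0.24, Kat2b 0.057 and Hdac3 0.10 in PS against c-Kit+, and Ep300 −0.16 and Brd2 −0.18 in RS against PS. Stricter peaks gave Crebbp 0.055, and summits within 1 kb gave it 0.062, in RS against PS; the latter gave Kat2a −0.37 in PS against c-Kit+. Leaving out single libraries moved Kat2a between −0.13 and 0.16 and Kat2b between −0.051 and 0.18 in KO against WT; Ep300 between −0.35 and 0.20, Crebbp between −0.24 and 0.20, Kat2a between −0.24 and 0.86 and Kat2b between −0.43 and 0.0061 in PS against c-Kit+; and Ep300 between −0.12 and 0.083, Brd2 between −0.16 and 0.16 and Hdac1 between −0.50 and 0.12 in RS against PS. The cause was not tested. With the replicate number as a block, 0 main promoter regions of the members were called in each of the 8 fits, and the Ep300 pseudogene site lost its call (limma adjusted p = 0.0501). Same-numbered libraries deviated together weakly (correlations of 0.000391 to 0.166 over the fits), so the numbers were not taken as pairs. Fold enrichments of low peaks rest on few overlapping fragments (heights from 5 at the second Kat2b start), which limits small differences there.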
